A study of Mus musculus with 6 samples.

Results

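The metallothionein genes and the main hepatic zinc transporter genes were examined in the livers of mice given a single large dose of ethanol. The set holds 10 of the 28880 genes in the table, found by their symbols: the metallothioneins Mt1 and Mt2, their regulator Mtf1, the importers Slc39a14, Slc39a4, Slc39a1 and Slc39a8, and the exporters Slc30a1, Slc30a10 and Slc30a7. The genes were put together with their response in these same livers already known, so the ethanol-to-control differences of these 10 genes are given as a description, without p-values. Where a call is mentioned for one of them, it says only on which side of the threshold the value fell and is no evidence of a response. All 10 passed the filter on low counts, and Mt2 passed it only through the ethanol group.

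Bulk RNA-seq was performed on liver tissue of male, wild-type C57BL/6J mice aged 6 to 8 weeks. The ethanol group (n = 3 mice) received 50% ethanol by mouth, once, at 6 g/kg after 12 h without food, and livers were taken 24 h later. The control group (n = 3 mice) received no ethanol, and all 6 libraries carry the same batch label. A fast is stated for the ethanol mice only, so fasting and dosing cannot be told apart from ethanol in any difference given here.

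Metallothioneins are small, cysteine-rich proteins of the cytosol that bind zinc and copper and release zinc to other proteins, and the liver is one of the organs where they are most inducible. Free zinc is sensed by MTF1, a zinc-finger transcription factor that binds metal response elements in the promoters of Mt1, Mt2 and the exporter gene Slc30a1. Proteins of the ZIP family (Slc39a genes) bring zinc into the cytosol from outside the cell or from organelles, and those of the ZnT family (Slc30a genes) move it out of the cytosol. Metallothionein genes and Slc39a14 are also known to respond to glucocorticoids, interleukin-6 and fasting.

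Libraries held 60514417 to 74210869 counts. Levels are given as FPKM (sequenced fragments scaled to transcript length and to library size), which allows genes to be compared per length. Differences are log2 ethanol minus control from edgeR, where libraries are scaled by TMM, a scaling that centres the bulk of genes, and each has a standard error (SE). The choice of scaling matters in these livers. The median difference of the 16717 tested genes was -0.04 with TMM but -0.71 when only total counts were used, as FPKM also does, so a gene can be lower by FPKM and higher by TMM. Ethanol replicate 3 lay apart from replicates 1 and 2 on the second principal component, which held 16.7% of the variance, and values that rest on it are named below. In whole liver, fewer cells of a type and less RNA per cell cannot be told apart.

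Of the 10 genes, 4 were called higher in ethanol livers (Mt1, Mt2, Slc39a14 and Slc30a1), where a call means an adjusted p under 0.05 and a log2 difference beyond 1. Of all genes tested, 10.4% were called higher. None of the 10 was called lower by edgeR, beside 13.8% of all genes tested. The count at an unadjusted p under 0.05 was 2 lower, DESeq2 called 0 lower and limma on log2(FPKM + 1) called 0 lower. Since the genes were chosen on this contrast, nothing is read from these counts. With total counts as the only scaling, 3 were called higher (5.06% of all genes) and 2 lower, Mtf1 and Slc39a8 (32.2% of all genes).

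**Figure D1:**
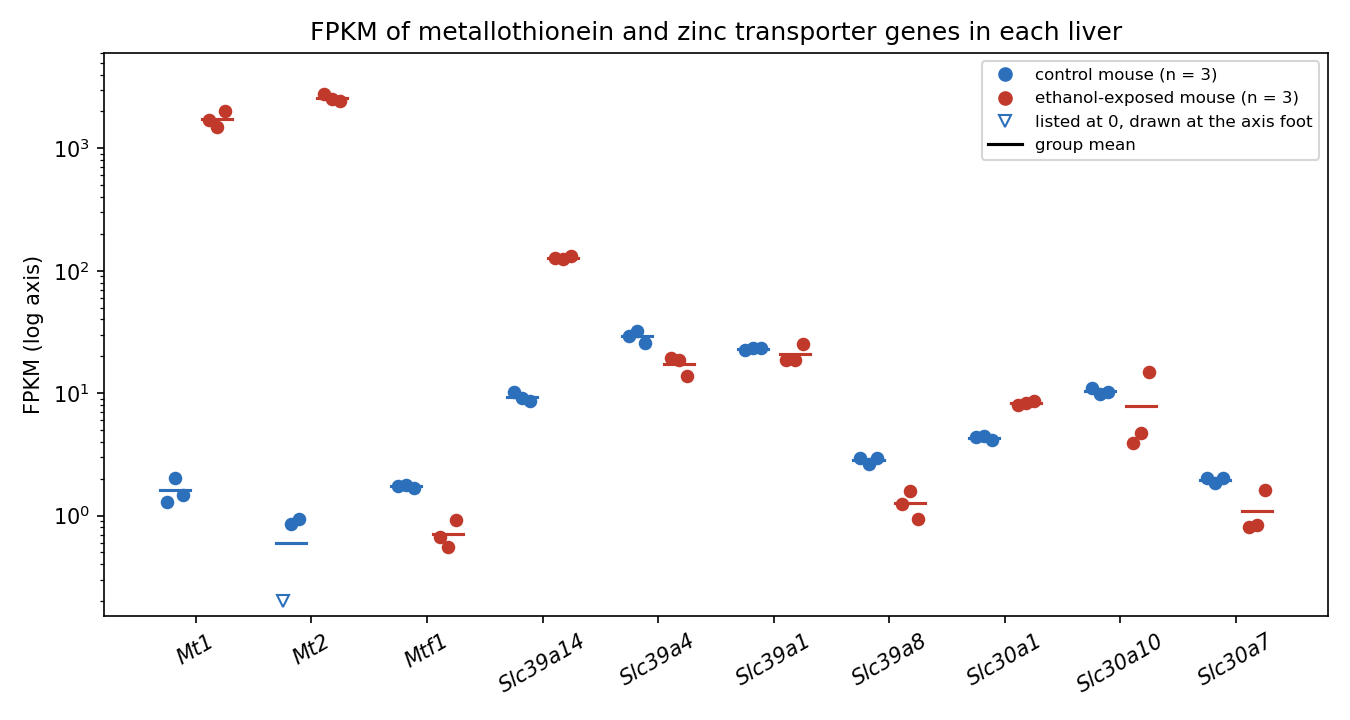
FPKM of the 10 genes in each library on a log axis, with ethanol and control mice as separate points, a line at each group mean and a triangle at the axis foot for the control library with Mt2 listed at 0. Mt1 and Mt2 were the lowest of the set in control livers by mean (1.60 and 0.594 FPKM) and the highest in ethanol livers (1748 and 2571 FPKM), while Slc39a14 stood at 9.33 and 128 FPKM.

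The promoters of both metallothionein genes and of Slc30a1 are shown first, since these are the classical MTF1 targets of the set. Each line gives 300 bases, 250 before and 50 after the annotated start, from RefSeq on GRCm38.p6, read 5′ to 3′ on the strand of the gene, which is the plus strand for all 3. Capitals mark matches to the core of the metal response element, searched as TGCACNC or TGCGCNC on both strands, so that a match on the other strand reads as its reverse complement.
Mt1 promoter, chr8:94178839-94179138: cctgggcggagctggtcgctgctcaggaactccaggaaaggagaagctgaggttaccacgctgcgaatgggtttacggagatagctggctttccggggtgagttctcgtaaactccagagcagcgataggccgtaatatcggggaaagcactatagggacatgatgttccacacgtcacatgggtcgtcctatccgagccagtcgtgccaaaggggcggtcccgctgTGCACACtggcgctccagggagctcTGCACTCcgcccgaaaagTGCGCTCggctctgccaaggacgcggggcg
Mt2 promoter, chr8:94172368-94172667: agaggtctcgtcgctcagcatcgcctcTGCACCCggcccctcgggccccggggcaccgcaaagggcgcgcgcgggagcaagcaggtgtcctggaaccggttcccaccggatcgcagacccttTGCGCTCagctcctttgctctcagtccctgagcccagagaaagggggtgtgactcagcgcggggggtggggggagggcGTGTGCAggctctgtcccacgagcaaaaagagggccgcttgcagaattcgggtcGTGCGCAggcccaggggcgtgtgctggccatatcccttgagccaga
Slc30a1 promoter, chr1:191906531-191906830: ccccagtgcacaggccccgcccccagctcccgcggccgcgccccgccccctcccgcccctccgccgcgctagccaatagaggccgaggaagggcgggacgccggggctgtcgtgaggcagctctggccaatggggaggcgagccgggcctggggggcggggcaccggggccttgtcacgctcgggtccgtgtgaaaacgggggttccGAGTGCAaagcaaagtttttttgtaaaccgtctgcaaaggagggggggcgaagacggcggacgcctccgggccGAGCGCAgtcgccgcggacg

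The Mt1 window held 3 matches, which began at bases -23, 3 and 21 counted from the start. The Mt2 window held 4, beginning at bases -223, -128, -50 and 5, with the latter pair on the other strand. In Slc30a1, 2 matches began at bases -43 and 31, both on the other strand. Among 32851 mouse promoter windows of the same length, 25.7% held at least 1 match, 7.11% at least 2, 1.97% at least 3 and 0.517% at least 4. Promoter windows were matched for 8 of the 10 genes. Slc39a14 and Slc39a4 had none, so their promoters were not searched. The Slc30a10 window (chr1:185454598-185454897) held 3 matches, of which 2 overlapped on opposite strands, and 1 of the 2 Slc39a8 windows held 1. No match to the metal response element was present in the windows of Mtf1, Slc39a1 or Slc30a7. The same windows were also searched for an antioxidant response element (TGACNNNGC), a glucocorticoid response element half-site (AGAACA) and a STAT motif (TTCNNNGAA). The first had 1 match each in Mt2, Slc30a1, Slc39a1 and 1 Slc39a8 window, beside 12.4% of all windows with any. The half-site had 1 match, in Mtf1 (19.0% of all windows), and the STAT motif had none (8.30%). These matches describe the letters of the windows and do not show that a factor binds there.

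Mt1 (ENSMUSG00000031765) and Mt2 (ENSMUSG00000031762) encode the metallothioneins that the liver makes. They lie on the plus strand of chromosome 8 at 94905710 to 94906955 and 94899292 to 94900196 in the coordinates of the deposited table, 5514 bases apart. These coordinates are not those of GRCm38, the build in the submitters' processing notes: none of the 10 genes has the same position in the GENCODE M21 annotation of that build, although 9 have the same length. Gene positions are therefore as deposited, with the build not settled, and are kept apart from the promoter positions above.

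The coding sequences of both genes are close to each other, which bears on how reads are assigned between them. They are shown here from GENCODE M21, each joined from 3 exons, with capitals at the bases that differ.
Mt1 coding sequence: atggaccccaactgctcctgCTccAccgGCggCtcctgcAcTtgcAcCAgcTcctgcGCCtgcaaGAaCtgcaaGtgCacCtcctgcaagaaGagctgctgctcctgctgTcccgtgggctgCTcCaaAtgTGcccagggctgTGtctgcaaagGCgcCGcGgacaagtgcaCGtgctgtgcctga
Mt2 coding sequence: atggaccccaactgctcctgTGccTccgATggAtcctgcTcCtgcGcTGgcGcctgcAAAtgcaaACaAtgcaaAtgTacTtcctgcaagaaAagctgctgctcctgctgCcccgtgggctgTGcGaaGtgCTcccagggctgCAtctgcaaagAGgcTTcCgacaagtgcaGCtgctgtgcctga
Both run to 186 bases. They share 148 bases and differ at 38 (79.6% identity), the longest identical stretch is 20 bases, and the reads were 150 bases long. Each holds 20 cysteine codons (tgc or tgt) among the 61 before the stop.

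Mt1 stood at 1715, 1493 and 2035 FPKM in ethanol replicates 1, 2 and 3, and at 1.29, 2.04 and 1.47 FPKM in control replicates 1, 2 and 3. The groups were far apart, and no library lay between them. The counts behind these levels were 169612, 145806 and 192968 in ethanol livers and 129, 166 and 130 in control livers. Mean FPKM was 1748 ± 272 (SD, n = 3) against 1.60 ± 0.393 (SD, n = 3), a ratio of 1090.0, and the log2 difference was 10.76 (SE 0.32).

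Mt2 was listed at 2769.9, 2518 and 2424 FPKM in ethanol livers and at 0, 0.853 and 0.929 FPKM in control livers. Control replicate 1 had no Mt2 count, which allows up to 3 counts, and the other controls had 33 and 39, against 129278, 116042 and 108480 in ethanol livers. The 3 ethanol libraries again lay far above every control library. Mean FPKM was 2571 ± 179 (SD, n = 3) against 0.594 ± 0.516 (SD, n = 3). The ratio of means was 4327, or 2885 without the control library at 0. The fitted log2 difference of 12.75 (SE 1.05) leaned on these few control counts and was 12.13 without control replicate 1.

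Together, Mt1 and Mt2 took 0.404%, 0.358% and 0.424% of all counts in the ethanol libraries and at most 0.000329% in a control library. Their summed level was 4318 ± 266 FPKM against 2.20 ± 0.822 FPKM (SD, n = 3 each). Ranked by FPKM among all 28880 genes, Mt1 was placed 55 to 57 in ethanol livers and 7809 to 9437 in control livers, and Mt2 was placed 42 to 51 against 10393 or lower. Both metallothionein genes were thus among the most abundant transcripts per length in every ethanol liver and sparse in every control liver.

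The balance between both genes also differed between the groups. Mt2 FPKM divided by Mt1 FPKM, a ratio within a library that scaling does not touch, was 1.62, 1.69 and 1.19 in ethanol livers and 0, 0.417 and 0.631 in control livers. In each ethanol liver Mt2 was the more abundant of the pair per length, and in each control liver Mt1 was. By counts, which do not allow for transcript length, the ratio was 0.762, 0.796 and 0.562 in ethanol livers and 0, 0.199 and 0.3 in control livers, so Mt1 had more reads in every library. For control replicate 1 the limit of 3 counts puts the ratio of Mt2 counts to Mt1 counts at 0.0233 at most. Since the control ratios rest on 0 to 39 Mt2 counts, their size is imprecise.

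Gm45774, an antisense gene that overlaps Mt2 on the minus strand, had 11279, 11556 and 7871 counts in ethanol livers and 9, 0 and 0 in control livers. These were 8.72%, 9.96% and 7.26% of the Mt2 counts in the same ethanol libraries. Whether counting used the strand is not given in the sources used here, so Gm45774 and Mt2 reads may not have been told apart.

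Mtf1 (ENSMUSG00000028890), which encodes the zinc-sensing factor itself, lies on chromosome 4 at 124695897 to 124743172. Its level was 0.666, 0.552 and 0.912 FPKM in ethanol livers and 1.75, 1.78 and 1.67 FPKM in control livers. All ethanol libraries lay below all control libraries. The log2 difference was -0.60 (SE 0.22) with TMM, where Mtf1 passed neither the adjusted p nor the fold threshold. It was -1.28 with total counts alone, where Mtf1 was called lower. Mtf1 thus did not share the direction of Mt1 and Mt2 on either scale. Counts were 471, 388 and 621 in ethanol livers and 1240, 1025 and 1043 in control livers. The gene 1110065P20Rik, which overlaps Mtf1 on the other strand, had 579, 816 and 641 counts in ethanol livers and 762, 635 and 732 in control livers. With the strand setting unknown, reads of Mtf1 and of this gene may not have been told apart.

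Slc39a14 (ENSMUSG00000022094, chromosome 14, 70540918 to 70588874, minus strand) encodes ZIP14, a plasma membrane importer of zinc, manganese and free iron in hepatocytes. Its level was 126, 125 and 133 FPKM in ethanol livers and 10.2, 9.10 and 8.68 FPKM in control livers. Spread within each group was small beside the gap between them. Counts were 103330 to 106511 against 6211 to 8548. Mean FPKM was 128 ± 4.16 (SD, n = 3) against 9.33 ± 0.791 (SD, n = 3), a ratio of 13.7, with a log2 difference of 4.45 (SE 0.14). By FPKM it was placed 295 to 354 among all genes in ethanol livers and 2834 to 3163 in control livers.

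Slc39a4 (ENSMUSG00000063354, chromosome 15) encodes ZIP4, best known as the intestinal zinc uptake protein that is lost in acrodermatitis enteropathica. It stood at 19.5, 18.8 and 13.9 FPKM in ethanol livers and 29.4, 32.1 and 25.9 FPKM in control livers. Every ethanol library was lower by FPKM, while TMM-scaled counts (CPM) overlapped, at 60.3 to 83.5 against 68.4 to 84.6. The log2 difference was -0.07 (SE 0.15) and was -0.74 with total counts alone. It turned to 0.06 without ethanol replicate 3 and to 0.00025 without control replicate 2.

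Slc39a1 (ENSMUSG00000052310, chromosome 3) encodes ZIP1, a widely expressed importer of the plasma membrane. Its FPKM was 18.6, 18.8 and 25.4 in ethanol livers and 22.7, 23.3 and 23.2 in control livers. The groups overlapped, with ethanol replicate 3 above and the other ethanol livers below the controls. Its direction turned with the scaling, from a log2 difference of 0.54 (SE 0.16) with TMM to -0.14 with total counts alone.

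Slc39a8 (ENSMUSG00000053897, chromosome 3) encodes ZIP8, an importer of manganese and zinc. Its FPKM was 1.25, 1.58 and 0.941 in ethanol livers and 2.98, 2.66 and 2.94 in control livers, with no overlap. The log2 difference was -0.52 (SE 0.17), under the fold threshold, and -1.18 with total counts alone, where it was called lower. The genes Gm43428 and Gm43429, which overlap Slc39a8 on the same strand, had at most 84 counts in any library.

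Slc30a1 (ENSMUSG00000037434, chromosome 1, 191638879 to 191645359) encodes ZnT1, the zinc exporter of the plasma membrane, whose promoter is shown above beside those of Mt1 and Mt2. Its FPKM was 8.02, 8.32 and 8.57 in ethanol livers and 4.39, 4.48 and 4.13 in control livers. The groups were separate on both scales and varied little within. Mean FPKM was 8.30 ± 0.278 (SD, n = 3) against 4.33 ± 0.178 (SD, n = 3), a ratio of 1.92. The log2 difference was 1.61 (SE 0.10) with TMM and 0.94 with total counts alone, and the call was lost there and with limma on FPKM because the difference fell under the fold threshold.

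Slc30a10 (ENSMUSG00000026614, chromosome 1) encodes a cell surface exporter that in the liver mainly carries manganese into bile. Its FPKM was 3.90, 4.76 and 14.7 in ethanol livers and 11.03, 9.90 and 10.3 in control livers. Ethanol replicates 1 and 2 were below every control and ethanol replicate 3 was above every control. The group mean of 7.80 ± 6.03 FPKM (SD, n = 3) therefore describes no single ethanol liver, and the log2 difference of 0.28 (SE 0.49) turned to -0.61 without ethanol replicate 3 and to -0.41 with total counts alone.

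Slc30a7 (ENSMUSG00000054414, chromosome 3) encodes ZnT7, which loads zinc into the Golgi apparatus. Its FPKM was 0.814, 0.844 and 1.63 in ethanol livers and 2.03, 1.83 and 2.04 in control livers. As with Slc30a10, ethanol replicate 3 was the highest of its group, though here it stayed below the controls by FPKM. The log2 difference was -0.16 (SE 0.29), or -0.84 with total counts alone, and became 0.003 without ethanol replicate 1, 0.02 without ethanol replicate 2 and -0.59 without ethanol replicate 3.

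Across the 10 genes, FPKM did not overlap between the groups for 4 genes that were higher in ethanol livers and 4 that were lower, beside 9.45% and 57.4% of all genes tested (66.9% in either direction). On TMM-scaled counts, 5 genes were higher without overlap and 2 were lower, beside 28.0% and 31.0% of all genes (59.0% in either direction). The additional higher gene was Slc39a1, and the lower genes were Mtf1 and Slc39a8. Mt1, Mt2, Slc39a14 and Slc30a1 did not overlap on either scale.

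**Figure D2:**
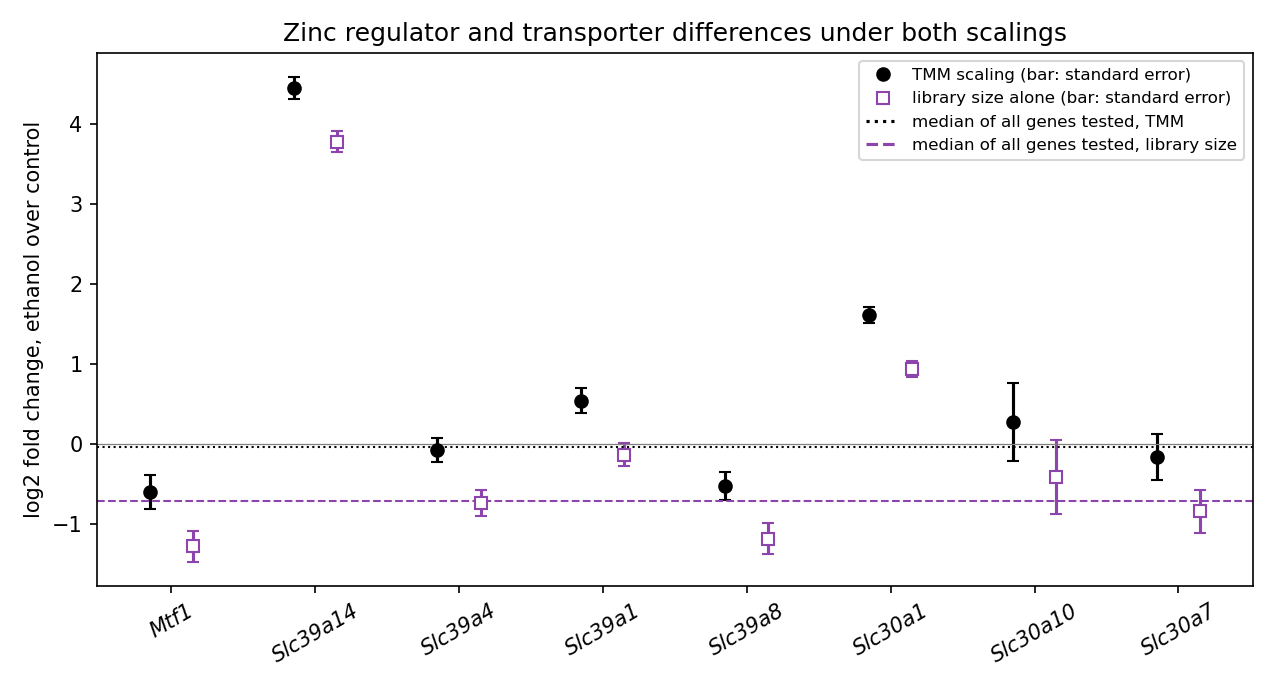
Log2 difference, ethanol minus control, of Mtf1 and the 7 transporter genes with TMM scaling (filled points) and with total counts alone (open squares), with standard errors as bars; the horizontal lines mark the median of all genes tested under each scaling (-0.04 and -0.71). Total counts alone lowered every gene by about the same amount, which left Slc39a14 far above all others (4.45 and 3.78), took Slc30a1 from 1.61 to 0.94 and turned the direction of Slc39a1 and Slc30a10.

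The order of levels within the set changed from one group to the other. In control livers the order by mean FPKM was Slc39a4 (29.1), Slc39a1 (23.0), Slc30a10 (10.4), Slc39a14 (9.33), Slc30a1 (4.33), Slc39a8 (2.86), Slc30a7 (1.97), Mtf1 (1.73), Mt1 (1.60) and Mt2 (0.594). Slc30a10 and Slc39a14 overlapped over the 3 libraries, as did Mtf1 and Mt1, while the other neighbours did not. In ethanol livers it was Mt2 (2571), Mt1 (1748), Slc39a14 (128), Slc39a1 (20.9), Slc39a4 (17.4), Slc30a1 (8.30), Slc30a10 (7.80), Slc39a8 (1.26), Slc30a7 (1.10) and Mtf1 (0.710). There the 3 leading genes were separate, Slc39a1 overlapped Slc39a4, Slc30a1 overlapped Slc30a10, and Slc30a7 overlapped both Slc39a8 and Mtf1.

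Slc39a14 made up most of the ZIP transcripts in ethanol livers. Its share of the summed FPKM of 14 ZIP genes was 68.5%, 65.9% and 68.2% in ethanol livers and 9.28%, 8.23% and 8.69% in control livers. It led the family by mean FPKM in ethanol livers and was number 4 in control livers, behind Slc39a4, Slc39a1 and Slc39a7, which resides in the endoplasmic reticulum. Summed ZIP FPKM was 184 to 195 in ethanol livers and 99.8 to 111 in control livers. Slc39a4 held 10.6%, 9.91% and 7.15% of it in ethanol livers against 26.7%, 29.0% and 26.0% in control livers.

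Among 10 ZnT genes, Slc30a1 held 34.0%, 34.3% and 21.4% of the summed FPKM in ethanol livers and 13.7%, 14.3% and 13.5% in control livers. It led the family in the ethanol group and was number 4 in the control group. Ethanol replicate 3 differed again, since Slc30a10 was the leading ZnT transcript there with 36.9% of the sum, against 16.5% and 19.6% in the other ethanol livers and 31.7% to 34.5% in control livers. Summed ZnT FPKM was 23.6, 24.3 and 40.0 in ethanol livers and 30.5 to 31.9 in control livers. The ratio of ZIP to ZnT transcripts per length was 7.80, 7.82 and 4.86 in ethanol livers and 3.45, 3.54 and 3.27 in control livers.

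**Figure D3:**
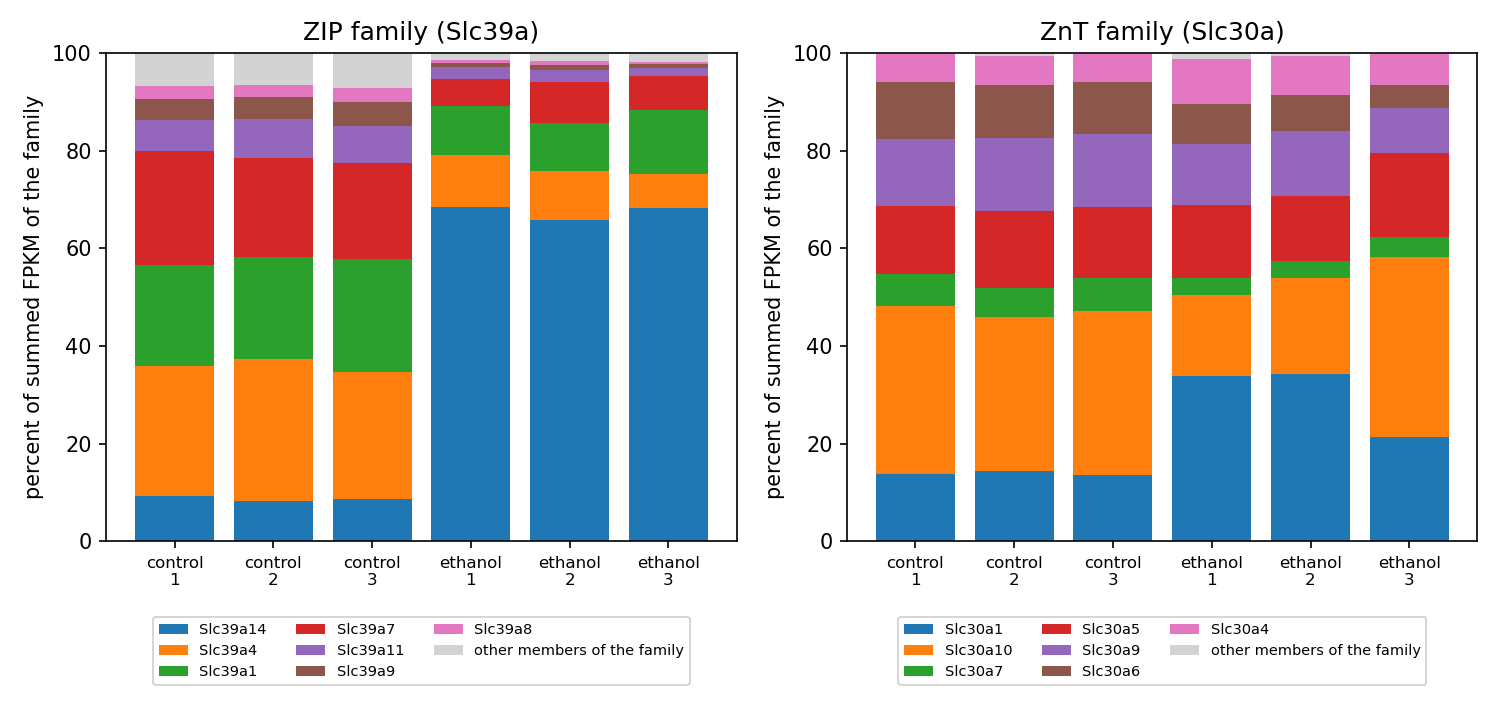
Share of each gene in the summed FPKM of the 14 ZIP genes and of the 10 ZnT genes, as stacked bars for each library, with the lowest genes joined as other members of the family. Slc39a14 filled 65.9% to 68.5% of the ZIP bars in ethanol livers and at most 9.28% in control livers, and Slc30a10 took a larger part of the ZnT bar in ethanol replicate 3 (36.9%) than in the other ethanol livers.

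The remaining zinc transporters set these values in context. Of 18 such genes (the rest of both families and Tmem163), 15 were tested. In ethanol livers 2 were called lower, Slc39a10 and Slc39a2, beside 13.8% of all genes. Slc39a2 passed the filter on low counts only through the control group. None was called higher by edgeR, beside 10.4% of all genes, with 1 at an unadjusted p under 0.05, 0 by DESeq2 and 0 by limma on log2(FPKM + 1). Their median log2 difference was -0.10 against -0.04 over all genes tested, and those not called ranged from -0.93 to 1.35. Mt3 and Mt4, the metallothioneins of brain and squamous epithelium, are not analysed here.

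Slc39a10 encodes a zinc importer whose transcription MTF1 is known to repress. It had 0.0849, 0.168 and 0.113 FPKM in ethanol livers and 1.07, 1.14 and 1.09 FPKM in control livers, with no overlap. It fell by 2.49 on the log2 scale (SE 0.27, adjusted p = 0.000615 by edgeR, quasi-likelihood with Benjamini-Hochberg). On log2(FPKM + 1), limma gave a difference of -0.90, under the fold threshold. The 1 added there is close to the control level of Slc39a10, which limits the fall that this scale can show. With limma on log2(FPKM + 0.1) the difference was -2.45 and called lower. Slc39a2, another plasma membrane importer, was sparse, with 0.0282, 0 and 0 FPKM in ethanol livers and 0.657, 0.648 and 0.378 FPKM in control livers. It fell by 5.11 on the log2 scale (SE 1.03, adjusted p = 0.00715 by edgeR). The size of that difference rests on the 8 counts of ethanol replicate 1 (-9.93 without that library). Limma on log2(FPKM + 1) gave -0.62, where control levels under 1 FPKM allow no difference beyond the fold threshold. On log2(FPKM + 0.1), limma gave -2.57, past the threshold.

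Another 3 of these genes passed the adjusted p but not the fold threshold. Slc39a3 and Slc39a9, importers of the plasma membrane and the Golgi, had log2 differences of -0.93 (adjusted p = 0.00264) and -0.92 (adjusted p = 0.00149) by edgeR. Slc30a4, which encodes ZnT4 of endosomal vesicles, had 0.97 (adjusted p = 0.00313 by edgeR). With total counts alone, Slc39a3 and Slc39a9 were called lower (both -1.59) and Slc30a4, at 0.30, did not pass (adjusted p = 0.119 by edgeR). The adjusted p alone was passed by 21.5% of all genes in each direction. Slc39a7, the third ZIP gene of control livers, had a log2 difference of -0.10 (SE 0.17, adjusted p = 0.651 by edgeR), and -0.76 with total counts alone (adjusted p = 0.0100 by edgeR). Slc30a5, a ZnT gene of the early secretory pathway, was also highest in ethanol replicate 3, with 6.84 FPKM in ethanol replicate 3 beside 3.53 and 3.23 in the other ethanol livers and 4.46 to 4.89 in control livers. By CPM the other ethanol livers (35.6 and 30.2) were above and within the range of the controls (27.5 to 30.3).

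Other known MTF1 targets were counted from a list that mixes induced genes with Slc39a10, which MTF1 represses, so no common direction is implied. Of 7 listed, 6 were tested, 1 was called higher (Hamp), 2 were called lower (Slc39a10 and Gclc) and 3 were not called. Over all genes tested, 10.4% were called higher and 13.8% lower. Hamp encodes hepcidin, the liver hormone that limits iron export and is also a target of interleukin-6 signalling. Its FPKM was 3051, 2950.4 and 2252 in ethanol livers and 146, 203 and 169 in control livers, a log2 difference of 4.66 (SE 0.19, adjusted p = 4.5e-05 by edgeR). Gclc encodes the catalytic subunit for glutathione synthesis. It had 24.4, 32.5 and 9.42 FPKM in ethanol livers against 96.6, 92.1 and 89.8 in control livers and fell by 1.42 on the log2 scale (SE 0.37, adjusted p = 0.0202 by edgeR), a call that was lost without ethanol replicate 1 (-1.51) or without any of the 3 control libraries in turn (-1.39, -1.42 and -1.44). Selenow (0.23, adjusted p = 0.157), Csrp1 (0.36, adjusted p = 0.203) and Ndrg1 (-0.08, adjusted p = 0.715) did not pass edgeR's test, and each of these 3 changed direction under some settings.

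The neighbourhood of the metallothionein genes was searched for genes that moved with them. Within 200 kb of Mt1 or Mt2, 15 genes of the table were examined, of which 11 were tested and 9 are not metallothioneins. Of those 9, 3 were called higher by edgeR, beside 10.4% of all genes. Among the 3, Gm45774 and Slc12a3 passed the filter on low counts only through the ethanol group, so nothing is read from this count. The antisense gene Gm45774 had a log2 difference of 12.22 (SE 0.65). The size of its difference rests on the 9 counts of control replicate 1 and was 16.51 without that library and 5.61 with limma on log2(FPKM + 1). Nudt21, a subunit of the pre-mRNA cleavage factor, 135633 bases away, had 4.86, 4.35 and 4.97 FPKM in ethanol livers against 3.87, 3.19 and 3.56 in control livers. Its log2 difference was 1.09 (SE 0.13, adjusted p = 0.00096 by edgeR). The call was lost with total counts alone (0.42) and upper quartile scaling (0.998). It was also lost with limma on log2(FPKM + 1), filtered or not (0.34), and on log2(FPKM + 0.1) (0.41). Slc12a3, the sodium-chloride cotransporter of the kidney tubule, had only 13 to 30 counts in ethanol livers and 0 to 5 in control livers. Its log2 difference of 3.48 (SE 1.00) is a description, given without a p-value. The call was lost without ethanol replicate 1 (3.18), control replicate 2 (4.32) or control replicate 3 (3.54). It was also lost under the replicate block (3.62), with no filter on low counts (3.45) and with unfiltered limma on log2(FPKM + 1) (0.03).

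The other tested neighbours were not called. Nup93, a nuclear pore gene 34237 bases away, had 1.61, 1.39 and 1.22 FPKM in ethanol livers and 1.47, 1.52 and 1.60 in control livers (log2 0.56, adjusted p = 0.0299 by edgeR, and -0.11 with total counts alone). Rpl10-ps5 had a log2 difference of 0.70 (adjusted p = 0.0164 by edgeR), under the fold threshold, and 0.03 with total counts alone. It lies within Nup93 on the same strand, so reads of both may not have been told apart. Bbs2, a gene of the ciliary BBSome, had -0.61 (adjusted p = 0.0842 by edgeR) and was called lower with total counts alone (-1.28, adjusted p = 0.00326 by edgeR). Ogfod1 had -0.13 (adjusted p = 0.489), Gm15889 had 0.47 (adjusted p = 0.320) and Gm15890 had 1.60 (adjusted p = 0.0848). Without control replicate 1, Gm15890 stood at 2.36 and was called higher. Differences of the size of Mt1 and Mt2 were listed among these genes for Gm45774 alone, whose reads may overlap those of Mt2.

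**Figure D4:**
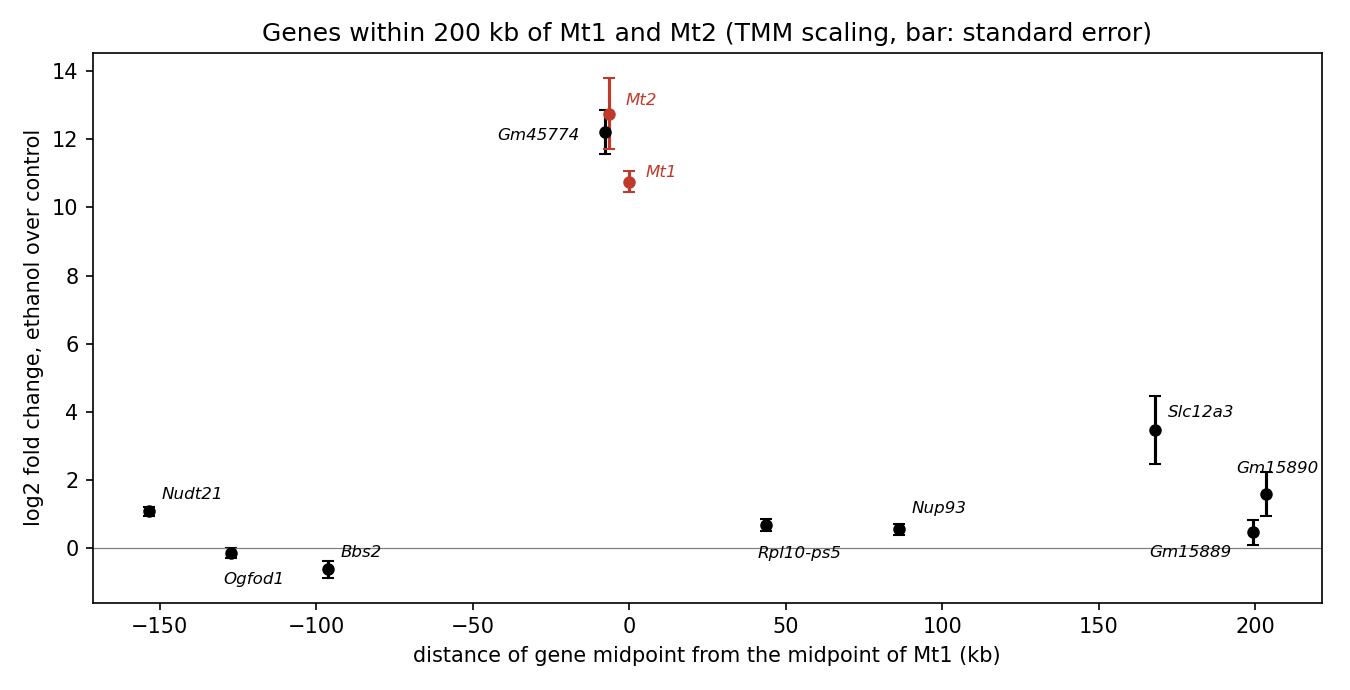
Log2 difference, ethanol minus control with TMM scaling and standard errors as bars, of the 11 tested genes examined within 200 kb of Mt1 or Mt2, against the distance of each gene's midpoint from that of Mt1 in kb. Mt2 (12.75), Gm45774 (12.22) and Mt1 (10.76) stand above all others, of which Slc12a3 was highest at 3.48.

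The genes whose pattern over the 6 libraries came nearest to those of Mt1 and Slc39a14 were found by the root-mean-square distance between mean-centred log2 CPM, over 13842 genes with an established symbol. For Mt1 the distance to Mt2 was 1.83. The nearest genes outside the set were Mfsd2a (2.01), a lysophospholipid transporter that rises in the fasted liver, Gadd45b (2.05), a stress-inducible gene of growth arrest, Atp2a1 (2.08), a calcium pump of muscle, Arid5a (2.12), an RNA-binding regulator of inflammatory transcripts, and Ciart (2.17), a circadian repressor. Mfsd2a, for instance, had 159, 211 and 121 FPKM in ethanol livers and 3.25, 1.90 and 1.60 FPKM in control livers. Within the ethanol group it was highest in replicate 2 and lowest in replicate 3, the reverse of Mt1. Nearness to Mt1 thus did not extend to the order of the ethanol libraries. Gadd45b stood at 22.8 FPKM in ethanol replicate 3, beside 129 and 161 FPKM in ethanol replicates 1 and 2.

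For Slc39a14 the nearest gene was Eif4ebp3, which encodes an inhibitor of cap-dependent translation, at a distance of 0.0595. Its FPKM was 133, 143 and 142 in ethanol livers and 10.5, 9.16 and 8.78 in control livers, nearly library by library the values of Slc39a14. Saxo5 (0.134), Npc1l1 (0.152), a sterol transporter, Cldn14 (0.181), a tight junction gene, and Lepr (0.201), the leptin receptor, followed. Saxo5 and Npc1l1 had no count in any control library and 26 to 40 in ethanol livers, so their distances depend on the prior count of 2 that was added before taking logs. The same holds for the distances of Mt2, with 0 to 39 control counts, and Atp2a1, with 0 to 4, from Mt1. Since the search used the same contrast as the choice of genes, the distances are a description.

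Lists of genes driven by the signals that are known to act on metallothionein genes and Slc39a14 were counted in the same fit. Of 14 IL-6 and STAT3 targets, 12 were called higher and 0 lower by edgeR, beside 10.4% and 13.8% of all genes tested. The lower count was also 0 at an unadjusted p under 0.05 and 0 by DESeq2. Their median log2 difference was 2.78. The higher count was 11 with total counts alone (5.06% of all genes), 10 with DESeq2 and 6 with limma on log2(FPKM + 1). Of the 14, 6 (Lrg1, Orm1, Orm2, Hp, Fgb and Fgg) had been picked on these libraries by the study, so that list is no independent evidence of its direction. Of 12 glucocorticoid targets, 10 were called higher and 1 lower by edgeR, beside 10.4% and 13.8% of all genes, with a median of 1.89. The higher count was 6 with total counts alone (5.06% of all genes) and 5 with limma. Of 11 tested NRF2 targets, 3 were called higher and 1 lower by edgeR, beside 10.4% and 13.8% of all genes. Their median of 0.62 became -0.03 with total counts alone. All 3 higher calls were lost with total counts alone and with limma, each of which called 0 higher and 2 lower. With total counts alone, 5.06% of all genes were called higher and 32.2% lower. The median over all genes tested was -0.04. Which of these signals bears on the metallothionein genes was not tested.

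Markers of liver cell types were counted beside these results. By edgeR, 10.4% of all genes tested were called higher and 13.8% lower, or 5.06% and 32.2% with total counts alone. All 10 hepatocyte markers were tested, with a summed level of 45354 to 48461 FPKM in ethanol livers and 40799 to 46981 FPKM in control livers, where 2 were called higher and 0 lower by edgeR (8 higher and 0 lower at an unadjusted p under 0.05, 2 higher and 0 lower by DESeq2). With total counts alone none of them was called, and their median log2 difference went from 0.58 to -0.09. Neutrophil markers were called higher in 5 of 5 tested (2 with limma) and summed to 2.33 to 14.1 FPKM against 0.261 to 0.704 FPKM. With control levels this low, some may have passed the filter on low counts only through the ethanol group. Nothing is therefore read from the neutrophil count. Erythroid markers were called higher in 4 of 5 tested and summed to 532 to 761 FPKM against 201 to 250.3 FPKM. Of 10 Kupffer cell markers, none was called in either direction by edgeR or DESeq2 (0 higher and 4 lower at an unadjusted p under 0.05). With total counts alone 4 were called lower, beside 32.2% of all genes, and 1 with limma. They summed to 54.6 to 68.8 FPKM against 94.2 to 105 FPKM, while 57.4% of all genes were lower without overlap by FPKM. Endothelial markers had 2 called higher and 3 lower of 8 (median -0.62), stellate cell markers 2 lower of 8 (median -0.27), T cell markers 1 lower of 3 tested (median -1.78), B cell markers 1 lower of 5 (median -0.66) and cholangiocyte markers 1 higher of 5 tested (median -0.20). With total counts alone, 4 endothelial, 4 stellate cell, 2 T cell, 2 B cell and 1 cholangiocyte marker were called lower, beside 32.2% of all genes. DESeq2, run without the filter on low counts, called lower 4 endothelial, 2 stellate cell, 1 B cell and 1 cholangiocyte marker and 3 of the 6 T cell markers in the table. No marker of these lists was at 0 in all libraries. The part of other cell types in the levels of the 10 genes was not tested.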

How the data were processed

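Liver RNA-seq of 3 ethanol and 3 control mice was used, grouped by the submitters' labels. The authors deposited, for each gene, a whole-number read count that was not normalized and an FPKM value scaled to transcript length and library size. Aligner, counter and strand setting are not given in the sources used here; the submitters' processing notes name GRCm38 and mm10. Of the table's count columns, 1 matched no library and was not used. Genes were kept apart by identifier, since 82 symbols occur more than once. The study's own fold changes and p-values were not used.

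Counts were filtered with filterByExpr, scaled by TMM and compared with edgeR 4.0.16 (quasi-likelihood, no covariates, Benjamini-Hochberg over 16717 genes) in R 4.3.3, after the procedure was tested on simulated data. A call needed an adjusted p under 0.05 and a log2 difference beyond 1. Alternatives were median-ratio, upper quartile and total-count scaling, no filter, a mean CPM of at least 1, DESeq2 1.42.0, limma 3.58.1 on log2(FPKM + 1), with and without a filter on low values, and on log2(FPKM + 0.1), a replicate block, adjusted p alone, and each library left out. Figures and sequence searches used Python 3.11.15. The members and lists were chosen with earlier results of these data known. Named are all 10 members, called zinc transporters, tested MTF1 targets and genes within 200 kb, and the 5 nearest patterns to Mt1 and to Slc39a14. Slc30a5, Slc39a3, Slc39a7, Slc39a9, Slc30a4 and the copper genes were named after their values were seen. A planned permutation test of the Mt2 to Mt1 ratio was not run, since it uses the contrast on which the genes were chosen. Depth was 60514417 to 74210869 counts per library; limits from 3 counts cover counting error only. One item near the metallothionein genes is not reported here. The p-values measure the spread between these mice.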

Additional observations from a re-analysis of the deposited data

How the results depend on the processing

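With 3 mice a group, and control Mt2 at 0 to 39 counts, spread between mice and low control counts limit the precision. Over 17 alternatives the log2 differences of Mt1, Mt2 and Slc39a14 ranged from 9.39 to 10.96, 10.71 to 13.26 and 3.64 to 4.51. The 10 genes were chosen on this contrast, so these ranges describe the settings and are no sign of stability. Slc30a1 ranged from 0.80 to 1.64 and lost its call with total counts alone and with limma. Of 170 values of the 10 genes under alternatives, 146 kept direction and side of the threshold. The cause of the others was not tested.

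Genes called higher numbered 3598 by adjusted p alone, 846 with total counts alone, 408 and 379 with limma on log2(FPKM + 1) with and without the filter, 752 with limma on log2(FPKM + 0.1), and 1490 to 1920 leaving out 1 library. Genes called lower numbered 3591, 5385 and 4965 by adjusted p alone, total counts alone and limma on log2(FPKM + 0.1), and 1713 to 2902 leaving out 1 library. Of the 10 genes, 1 was lower by adjusted p alone, 2 with total counts alone and 2 with limma on log2(FPKM + 0.1). Of the other zinc transporters, 4 were lower by adjusted p alone, total counts alone, upper quartile scaling or limma on log2(FPKM + 0.1), and 1 with limma on log2(FPKM + 1), filtered or not; leaving out 1 library gave 2 to 3. In that group 1 was higher by adjusted p alone, and leaving out 1 library gave 0 to 1 (1 without ethanol replicate 2 or 3).

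Among the genes followed under the alternatives, direction turned with total counts alone for Slc39a1 (-0.14), Slc30a10 (-0.41), Selenow (-0.44), Csrp1 (-0.31), Nup93 (-0.11) and Gm15889 (-0.20). It turned in the same genes and order with limma on log2(FPKM + 1), filtered or not (-0.15, -0.58, -0.44, -0.23, -0.075 and -0.056), and on log2(FPKM + 0.1) (-0.15, -0.67, -0.45, -0.27, -0.12 and -0.19). Leaving out 1 library in turn gave -0.59 to 0.019 for Slc30a7, -0.18 to 0.057 for Slc39a4, -0.61 to 0.59 for Slc30a10 and -0.18 to 0.089 for Ndrg1.

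Same-numbered libraries did not deviate together (correlations -0.03, -0.02 and -0.02). No shared effect of the replicate number was thus seen, though these values cannot exclude a pairing of the mice. With a replicate block, 1518 genes were called higher and 2000.0 lower, and Slc30a10 stood at -0.023.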

Other observations

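Copper is the other metal that metallothioneins bind, and genes of copper handling were counted in the same fit. Of 10 genes, 0 were called higher by edgeR (3 at an unadjusted p under 0.05, 0 by DESeq2) and 3 were called lower, beside 10.4% and 13.8% of all genes. With total counts alone 5 were called lower (32.2% of all genes), and with limma on log2(FPKM + 1) 4 were. Atp7b encodes the pump that sends copper into bile and is lost in Wilson disease. It had 0.953, 1.17 and 1.12 FPKM in ethanol livers and 4.39, 3.38 and 3.43 FPKM in control livers, and fell by 1.12 on the log2 scale (SE 0.15, adjusted p = 0.00143 by edgeR, Benjamini-Hochberg). Sco1, a copper chaperone of cytochrome c oxidase, fell by 1.63 (SE 0.40, adjusted p = 0.0155 by edgeR), and Slc31a2, a copper transporter of endosomes, fell by 1.05 (SE 0.28, adjusted p = 0.0201 by edgeR). Slc31a1, the main copper importer, had 20.6, 23.0 and 14.2 FPKM in ethanol livers against 44.2, 38.9 and 38.6 FPKM in control livers, with a log2 difference of -0.41 that did not pass (adjusted p = 0.0824 by edgeR) but was -1.07 and called lower with total counts alone (adjusted p = 0.0025 by edgeR). Atp7a (-0.47, adjusted p = 0.215), Sco2 (-0.11, adjusted p = 0.711) and Commd1 (0.31, adjusted p = 0.144) did not pass edgeR's test either. With total counts alone Atp7a was -1.14 and called lower, Sco2 was -0.76 and Commd1 turned to -0.37. The cytosolic copper chaperones Atox1 (0.72, adjusted p = 0.00754), Ccs (0.53, adjusted p = 0.00647) and Cox17 (0.60, adjusted p = 0.0214) passed edgeR's adjusted p with differences under the fold threshold, and with total counts alone they stood at 0.04, -0.14 and -0.08. The median of the list was -0.26, against -0.04 over all genes tested.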
